A study of Rattus norvegicus with 23 samples.

Results

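The 9 arrays described here hold RNA from the hippocampal CA3 field of 9 young adult rats, 1 array per animal, out of 23 arrays in the whole series. They were chosen by their labels alone, as the arrays of animals labelled young, and no measured value entered the choice. All 23 animals were male Long-Evans rats that received no treatment. The young rats were 6 months old (n = 9), and the aged rats were 24 to 26 months old. Aged rats were labelled unimpaired (n = 6) where their learning index in the Morris water maze, a pool with a hidden platform that the rat must find from memory, lay within the range of the young, and impaired (n = 8) where it was worse. Every animal was killed after the maze testing, CA3 was dissected away from CA1 and the dentate gyrus, and each sample is therefore a piece of tissue with all of its cell types, not sorted neurons. The labels number the animals as biological replicates, so the spread between arrays holds the spread between animals together with that of dissection, labelling and hybridisation.

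CA3 pyramidal neurons take input from dentate granule cells over the mossy fibres, form a dense network of recurrent excitatory contacts, and send their axons to CA1. Fast excitation there runs through AMPA, NMDA and kainate receptors for glutamate, and inhibition through GABA-A and GABA-B receptors on contacts made by local interneurons. Around the neurons lie astrocytes, which clear glutamate and potassium, oligodendrocytes, which make myelin, and microglia and vessels.

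Expression is given on the log2 scale as deposited, so a difference of 1 is a factor of 2 in signal, and each gene is shown by its brightest probe set. Values with ± are means with the SD over the 9 young animals unless another n is given. The lowest value of the scale is 2.195, and on each young array 29.9% to 30.7% of probe sets sat at it. A gene was called bright at a young mean of at least 10, dim at a mean below 6, middle in between, and at the floor where all 9 values lay below 3. Brightness belongs to the probe set and not to the RNA alone: among 1936 pairs of probe sets for the same gene the levels differed by a median of 1.45 log2 units, and 183 of 598 bright genes with several probe sets (30.6%) had another one at the floor. Levels of different genes are therefore placed in these classes and are not set against each other, and a gene at the floor is a gene whose probes gave no signal above background, not a gene shown to be silent.

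Of 14217 genes, 1352 were bright (9.51%), 5786 lay in the middle (40.7%), 2472 were dim (17.4%) and 4607 lay at the floor (32.4%). The young arrays had medians of 3.39 to 3.42 and a mean correlation with the other young arrays of 0.9972 to 0.9978. The processing brings the arrays to 1 distribution, and the correlation runs over probe sets of all levels. Neither value therefore measures how alike the animals were at single genes. The labelled tissue was checked on 4 genes, and all 4 lay above the floor in every animal. Grik4, the kainate receptor subunit concentrated in CA3, ran from 8.93 to 9.33 with a median of 9.11. Gfap, the intermediate filament of astrocytes, ran from 11.94 to 12.40 with a median of 12.19, and Mbp, myelin basic protein, from 13.82 to 14.05 with a median of 13.93. Gad1, which makes GABA in interneurons, ran from 10.60 to 11.26 with a median of 11.03. For the first 3 of these genes the animals formed a continuous range, while Gad1 was lowest in young 4 and lay between 11.01 and 11.26 in the other 8 animals. Among the 9 arrays, young 1 stood apart for genes of meninges and fibroblasts and young 4 for genes of the neighbouring CA1 field, and their values at these genes are given apart from those of the other animals.

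**Figure D1:**
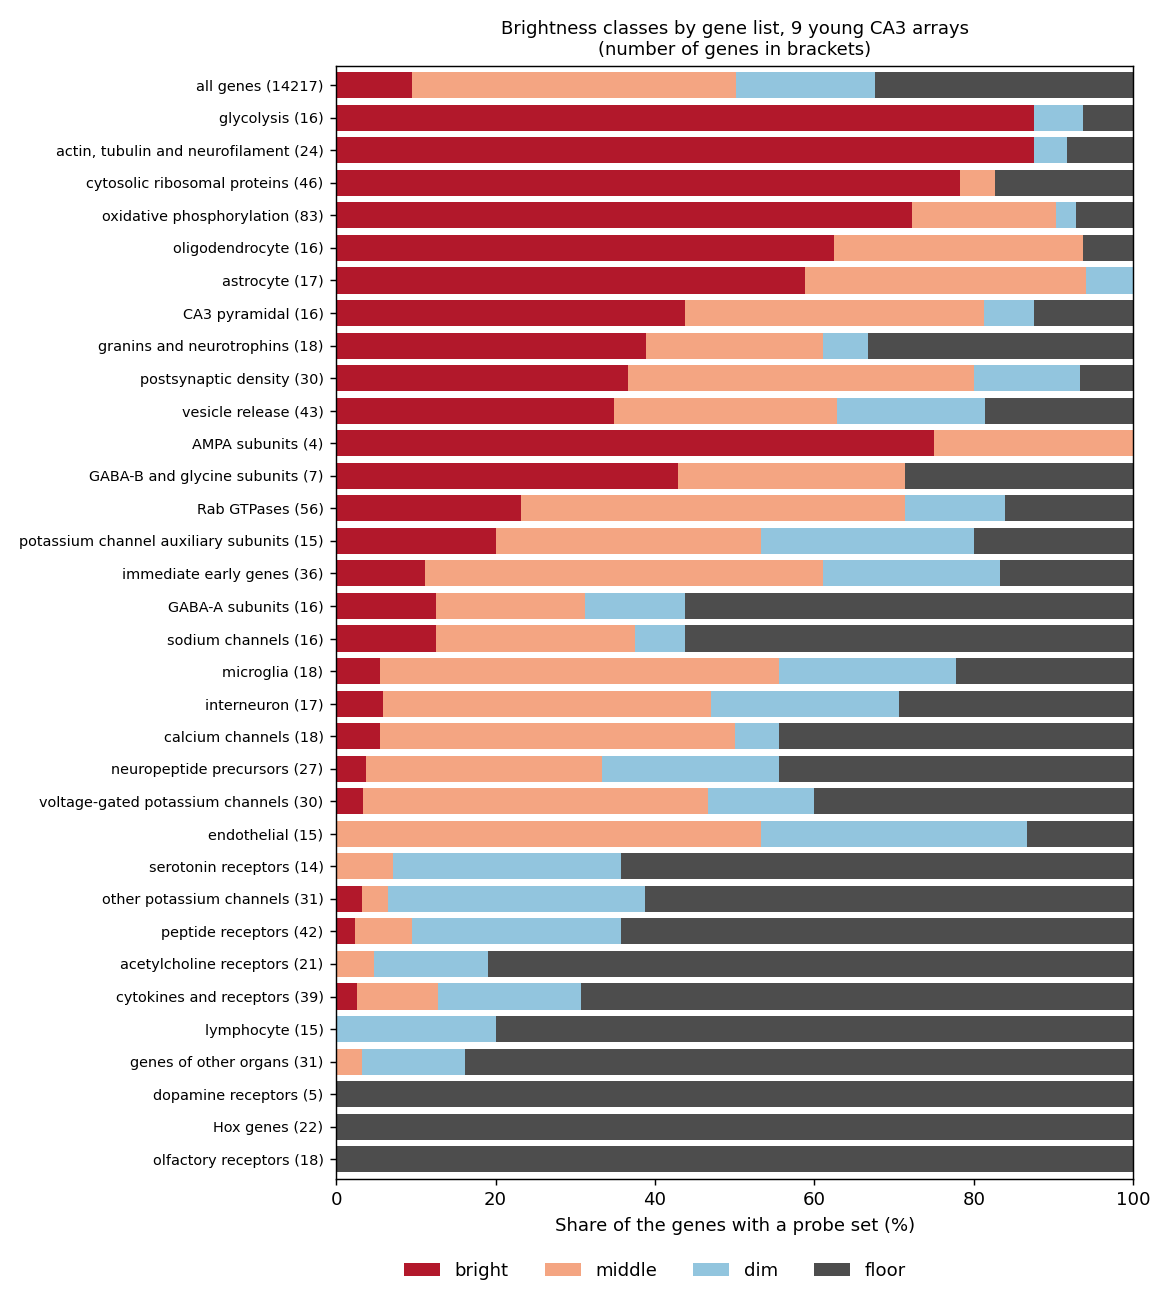
Share of genes in each brightness class (horizontal axis, percent) for all genes and for a selection of the gene lists (vertical axis, number of genes with a probe set in brackets), from 9 young CA3 arrays. Genes of glycolysis and the cytoskeleton are mostly bright (87.5% each), whereas the Hox, olfactory receptor and dopamine receptor genes are all at the floor, against 32.4% of all genes.

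The stretch of DNA just upstream of the start site differed between the brightness classes, and 8 examples are shown because they span that range: 5 bright genes with different upstream composition, the CA3 marker Grik4, and 2 hormone genes of other organs that lay at the floor. Each is the 250 bases before the start of the gene in RefSeq (build GRCr8), written 5′ to 3′ on the gene's own strand, with every CG dinucleotide in capitals. CG dinucleotides are the sites of DNA methylation in vertebrates, and stretches rich in them, called CpG islands, surround the starts of most widely used genes. Ppp3ca encodes the catalytic subunit of calcineurin (chr2:227839357-227839606, plus strand), Gabra5 a GABA-A receptor subunit typical of hippocampus (chr1:117516607-117516856, minus strand), Gad1 glutamate decarboxylase (chr3:75777202-75777451, plus strand), Slc17a7 the vesicular glutamate transporter of cortical neurons (chr1:104785955-104786204, plus strand) and Gfap the astrocyte filament (chr10:88361662-88361911, minus strand). Grik4 lies at chr8:52102064-52102313 (minus strand), Ins1, an insulin gene of pancreatic beta cells, at chr1:261185869-261186118 (plus strand), and Prl, the pituitary hormone prolactin, at chr17:38298218-38298467 (minus strand).
Ppp3ca: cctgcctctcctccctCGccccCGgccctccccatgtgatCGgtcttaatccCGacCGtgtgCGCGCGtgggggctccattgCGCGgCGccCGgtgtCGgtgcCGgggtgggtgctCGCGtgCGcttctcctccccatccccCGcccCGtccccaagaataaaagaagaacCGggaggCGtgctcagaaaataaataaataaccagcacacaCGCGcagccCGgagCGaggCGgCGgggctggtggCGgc
Gabra5: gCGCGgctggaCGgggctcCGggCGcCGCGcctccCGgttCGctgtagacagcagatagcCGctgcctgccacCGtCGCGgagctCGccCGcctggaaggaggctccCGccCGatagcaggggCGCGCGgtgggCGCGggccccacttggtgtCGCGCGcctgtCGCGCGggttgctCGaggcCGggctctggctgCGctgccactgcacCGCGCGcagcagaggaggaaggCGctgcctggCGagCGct
Gad1: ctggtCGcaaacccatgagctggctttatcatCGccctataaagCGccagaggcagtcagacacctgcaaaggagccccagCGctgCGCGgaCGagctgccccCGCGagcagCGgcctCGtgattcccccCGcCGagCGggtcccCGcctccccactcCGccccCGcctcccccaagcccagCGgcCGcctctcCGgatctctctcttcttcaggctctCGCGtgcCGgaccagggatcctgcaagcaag
Slc17a7: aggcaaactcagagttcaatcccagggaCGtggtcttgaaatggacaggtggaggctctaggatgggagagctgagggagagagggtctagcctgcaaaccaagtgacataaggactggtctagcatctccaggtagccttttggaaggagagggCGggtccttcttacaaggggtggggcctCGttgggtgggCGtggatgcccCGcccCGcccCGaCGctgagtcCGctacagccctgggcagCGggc
Grik4: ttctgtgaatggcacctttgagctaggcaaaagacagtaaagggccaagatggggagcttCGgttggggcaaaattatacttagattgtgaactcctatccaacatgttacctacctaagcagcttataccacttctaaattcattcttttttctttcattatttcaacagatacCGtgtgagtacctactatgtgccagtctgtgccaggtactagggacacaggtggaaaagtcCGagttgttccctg
Gfap: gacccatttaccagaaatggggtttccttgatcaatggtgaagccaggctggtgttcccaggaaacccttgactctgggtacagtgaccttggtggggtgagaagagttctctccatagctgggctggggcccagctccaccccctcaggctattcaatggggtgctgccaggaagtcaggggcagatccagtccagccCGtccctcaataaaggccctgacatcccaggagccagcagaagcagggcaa
Ins1: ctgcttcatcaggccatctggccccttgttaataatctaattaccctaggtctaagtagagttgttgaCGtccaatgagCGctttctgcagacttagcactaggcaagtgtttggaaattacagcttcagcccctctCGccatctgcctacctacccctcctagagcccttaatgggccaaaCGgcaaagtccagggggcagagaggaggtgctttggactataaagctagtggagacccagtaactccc
Prl: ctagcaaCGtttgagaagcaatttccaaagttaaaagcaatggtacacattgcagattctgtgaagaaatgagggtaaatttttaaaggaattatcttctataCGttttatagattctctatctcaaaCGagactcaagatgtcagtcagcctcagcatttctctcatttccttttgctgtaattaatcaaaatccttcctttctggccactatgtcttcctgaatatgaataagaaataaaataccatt

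Counted over these 250 bases, Gabra5 had 37 CG dinucleotides, Ppp3ca 28 and Gad1 23, while Slc17a7 had 10, Grik4 3 and Gfap 1, so that bright genes of CA3 stood at both ends. Ins1 had 4 and Prl 3. Over all 11733 genes with an upstream sequence in the table, the median was 18 in bright genes, 17 in middle genes, 15 in dim genes and 7 at the floor. At most 5 CG dinucleotides were found in 8.95% of bright genes and in 42.7% of genes at the floor, against 21.0% of all. The letters TATAAA, searched on the gene's own strand and wholly inside the window from -50 to -11 relative to the start, were present in 2.24% of bright, 0.855% of middle, 2.08% of dim and 5.22% of floor genes, against 2.57% of all, and in 12 of 25 genes of other organs (48.0%). Such a match describes the letters in this window and is not a measured binding site.

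The 20 probe sets with the highest young means are named here as a description, and their order is not one of RNA amounts. They included the mitochondrially encoded oxidase subunits COX2 (14.58) and COX1 (14.11), calcineurin Ppp3ca (14.15 ± 0.07), the peptide-processing enzyme Cpe (14.03), the actin-binding peptide Tmsb4x (14.02), the elongation factor Eef1a1, the ribosomal protein Rps29 (13.84 ± 0.06), calmodulin Calm2 (13.75 ± 0.09), the membrane fusion protein Snap25 (13.69 ± 0.08), the desaturase Scd2 (13.64), the G protein gene Gnas (13.56), the chaperone Hsp90ab1 (13.46) and actin Actg1 (13.44 ± 0.09). Genes known from glia were the myelin genes Mbp (13.92 ± 0.08) and Mobp (13.50 ± 0.09), the calcium-binding S100b (13.50 ± 0.10), the protease inhibitor Cst3 (13.74) and the lipid carrier Apoe (13.48). Zwint (14.01) and Serinc1 (13.37) were the remaining ones. The SD of these genes over the 9 animals was at most 0.10, close to the 0.08 that was the median SD of genes at 12 and above.

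Families of genes for basic cell functions and for the cytoskeleton, the latter with neuronal members, held many bright members, in shares that differed between families. Of 46 cytosolic ribosomal protein genes 36 were bright and 8 at the floor, and of 83 genes of oxidative phosphorylation 60 were bright, 15 in the middle, 2 dim and 6 at the floor, with the cytochrome oxidase subunit Cox6c at 13.06 ± 0.08 and the ATP synthase subunit Atp5f1b at 12.94 ± 0.09. Glycolysis had 14 of 16 genes bright, among them Pgam1 (13.32 ± 0.07), Aldoa (13.24 ± 0.09) and Pgk1 (13.21 ± 0.07), and the muscle enolase Eno3 dim at 3.41. Actins, tubulins, microtubule proteins and neurofilaments had 21 of 24 genes bright, including Map2 (13.36 ± 0.06), Mapt (13.34 ± 0.11), Tubb2a (13.17 ± 0.07) and the neurofilament Nefl (12.92 ± 0.08). The genes of that list below the middle class were Dcx (5.76 ± 0.17, dim) and Dpysl3 and Sox11 (floor), while others known from growing neurites, such as Stmn2 (12.18 ± 0.05) and Gap43 (11.31 ± 0.14), were bright. Proteasome genes were bright (16) or middle (18) in 34 of 36 cases, and the remaining pair were the interferon-inducible catalytic subunits Psmb9 (3.41 ± 0.24) and Psmb8 (floor).

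Genes reported to mark CA3 pyramidal cells were bright in 7 of 16 cases, middle in 6, dim in 1 and at the floor in 2. The bright ones were the pentraxin Nptx1 (12.37 ± 0.12), the granin Chgb (12.32 ± 0.10), Nrip3 (12.13 ± 0.10), the secreted Wnt antagonist family member Dkk3 (11.65 ± 0.09), the transcription factor Bhlhe22 (11.48 ± 0.07), Cpne4 (11.05 ± 0.13) and the RNA-binding protein Elavl2 (10.53 ± 0.11). Grik4 (9.15 ± 0.13), Homer3 (9.09 ± 0.19), Bok (9.06 ± 0.13) and the adhesion protein Nectin3 (8.63 ± 0.18) lay in the middle class. Socs2 and Galnt3 lay at the floor, and Coch lay at 2.19 in 8 animals and at 6.04 in young 1. The 13 markers at 4 or more in all animals had SDs of 0.07 to 0.19. Those of Homer3 and Nptx1 lay above the 90th percentile of genes at their level (0.18 at 8 to 10 and 0.11 from 12 up), and those of the other 11 below it.

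Markers of the neighbouring fields were present as well. The CA2 genes Pcp4 (10.66 to 11.40, median 10.98), Ptpn5 (9.84 ± 0.14), Necab2 (9.76 ± 0.09) and Rgs14 (8.78 ± 0.16) lay in the bright or middle class, and Avpr1b and Stard5 at the floor. All 7 CA1 genes with a probe set lay above the floor, and 5 of them were in the middle class: Mpped1 (9.21 ± 0.67), Fibcd1 (8.10 ± 0.81), Ccn3 (7.72 ± 0.50), Wfs1 (7.02 ± 0.65) and Man1a1. Of 11 dentate granule cell genes 6 lay in the middle class, among them the calcium buffer Calb1 (8.94 ± 0.34), C1ql3 (8.82 ± 0.50) and the transcription factor Prox1 (7.30 ± 0.44), and 3 at the floor. In the list of subiculum and cortex, Lamp5 (9.55 ± 0.18), Etv1 (9.54 ± 0.29) and Bcl11b (9.23 ± 0.66) lay in the middle class, and the cortical genes Tbr1 and Foxp2 at the floor. In tissue RNA, fewer cells of a type and less RNA of that gene per cell cannot be told apart, and whether these signals came from neighbouring tissue or from CA3 cells was not tested.

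Glia gave strong signals. Of 17 astrocyte genes 10 were bright, 6 in the middle, 1 dim and none at the floor, against 32.4% of all genes there. They included the gap junction protein Gja1 (12.93 ± 0.10), glutamine synthetase Glul (12.66 ± 0.11), the glutamate transporter Slc1a3 (12.36 ± 0.08) and the water channel Aqp4 (12.03 ± 0.14). The dim one was Slc1a2 (5.85 ± 0.28), the main glutamate transporter of forebrain astrocytes, although its RNA is known to be abundant in hippocampus. Of 16 oligodendrocyte genes 10 were bright, among them Cldn11 (12.22 ± 0.15), Cnp (11.85 ± 0.13), Mal (10.97 ± 0.16), Mag (10.24 ± 0.15) and Mog (10.04 ± 0.15), 5 lay in the middle and Olig2 lay at the floor. Of 7 genes of the precursors of these cells, Bcas1 (11.77 ± 0.16) and Ptprz1 (10.43 ± 0.07) were bright, the growth factor receptor Pdgfra (8.95 ± 0.08) and Lhfpl3 (6.25 ± 0.28) middle, Vcan (5.96 ± 0.23) and the proteoglycan Cspg4 (3.59 ± 0.22) dim, and Enpp6 at the floor.

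Genes of microglia and vessels were spread over the classes. The protease Ctss (11.08 ± 0.12) was bright, and the complement subunit C1qa (8.53 ± 0.18), the purinergic receptor P2ry12 (8.51 ± 0.12), the growth factor receptor Csf1r (8.44 ± 0.18), Aif1 (6.75 ± 0.28) and Trem2 (6.03 ± 0.27) were among the 9 in the middle, of 18 microglial genes, with 4 dim and 4 at the floor. Cx3cr1, Ptprc, Itgam and Cd68 were those at the floor. Endothelial genes were middle in 8 of 15 cases, with the thyroid hormone carrier Slco1c1 (9.39 ± 0.18), the tight junction protein Cldn5 (9.36 ± 0.13) and the glucose transporter Slc2a1 (9.28 ± 0.15), and dim in 5. Pericyte and smooth muscle genes were middle in 2 of 12 cases, Acta2 (7.89 ± 0.14) and Tagln (6.09 ± 0.12), dim in 5 and at the floor in 5. Lymphocyte genes lay at the floor in 12 of 15 cases and were dim in the other 3, Cd2 (4.86), Cd3e (4.05) and Zap70 (2.94).

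Inhibitory neurons were detected through several classes of marker. Gad1 (11.04 ± 0.18, SD 0.086 without young 4) was bright, and parvalbumin Pvalb (8.91 ± 0.20), neuropeptide Y Npy (8.38 ± 0.28), Reln (7.85 ± 0.33), somatostatin Sst (7.62 ± 0.33) and the vesicular GABA transporter Slc32a1 (7.38 ± 0.30) lay in the middle. Vip (4.88 ± 0.34) and calretinin Calb2 (4.90 ± 0.06) were dim. The probe set of Gad2, the other GABA-synthesising enzyme, lay at the floor (2.66), as did those of Nos1, Erbb4 and Tac1. Sst was highest in young 5 (8.40) and lay between 7.23 and 7.68 in the other 8 animals, and young 5 also had the highest Gad1 (11.26).

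Among cells that should be rare in the tissue, blood, choroid plexus and meninges left uneven traces. The beta globin gene Hbb was bright, from 10.42 to 11.05 with a median of 10.59, whereas the haem enzyme Alas2 and the membrane protein Slc4a1 of red cells lay at the floor, as did 7 of 9 blood genes. Transthyretin, Ttr, the main product of choroid plexus, ran from 5.31 to 7.73 with a median of 6.12 and was highest in young 2, while 9 of 15 genes of that list, including Kl, Kcnj13 and Aqp1, lay at the floor. Genes of other organs were at the floor in 26 of 31 cases, and the others were skeletal actin Acta1 (6.06 ± 0.12), albumin Alb (5.68 ± 0.49), the keratin Krt10 (5.56 ± 0.17), Myh6 (3.37) and Prm1 (2.37). Genes of other brain regions were at the floor in 21 of 27 cases, among them the dopamine markers Th and Slc6a3, the acetylcholine enzyme Chat, the serotonin transporter Slc6a4 and the hypothalamic hormones Oxt and Pomc. The 3 in the middle class were Lhx9 (6.56 ± 0.20), Prkcd (6.11 ± 0.14) and the orexin precursor Hcrt (6.52 ± 0.82), the last with values from 5.01 to 7.34. Prkcd is a member of the CA3 list as well.

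**Figure D2:**
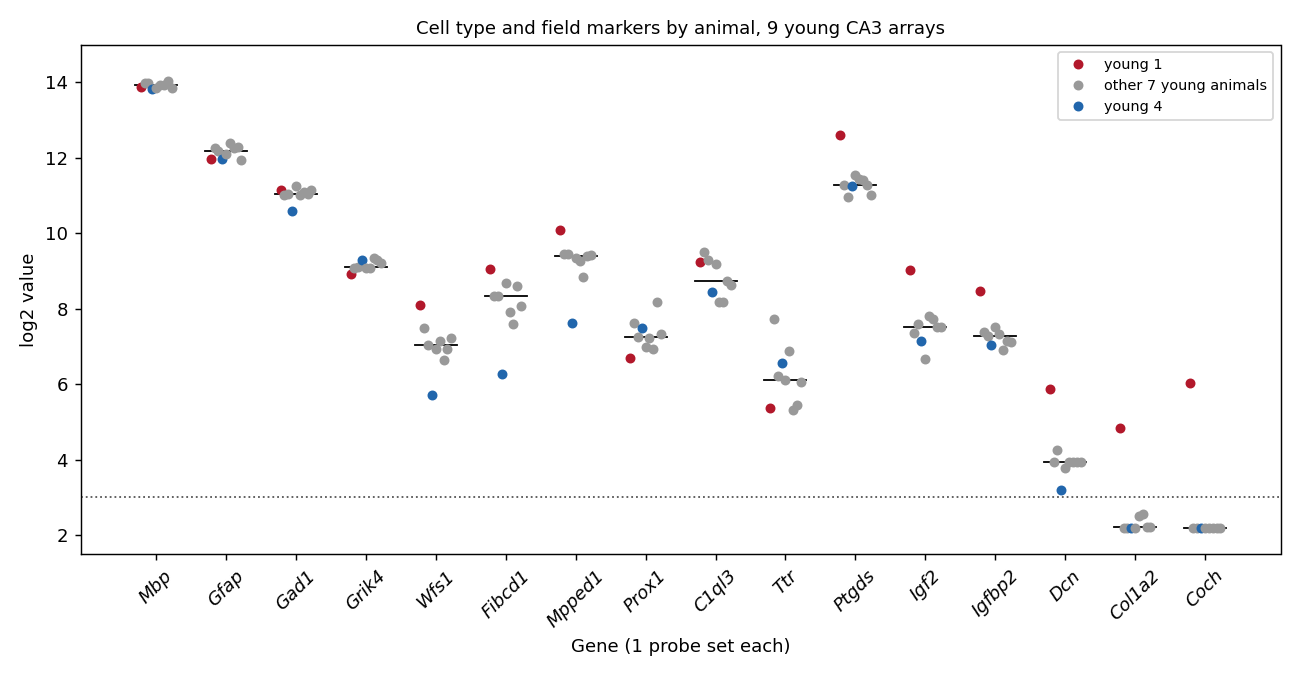
Log2 value (vertical axis) of 16 marker genes (horizontal axis, 1 probe set each) in the 9 young animals, with a short line at the median and a dotted line at the floor limit of 3. Young 1 (red) lies above every other animal for Ptgds, Igf2, Igfbp2, Dcn, Col1a2 and Coch, and young 4 (blue) below every other animal for Wfs1, Fibcd1 and Mpped1.

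AMPA receptors carry most fast excitation, and all 4 of their subunits were detected. Gria2 (12.29 ± 0.21), the subunit that sets calcium permeability, Gria3 (10.90 ± 0.08) and Gria1 (10.13 ± 0.28) were bright and Gria4 (8.49 ± 0.20) lay in the middle. Gria1 ran from 9.80 to 10.50 with a median of 10.10, with young 2, 3 and 5 at 10.37 or more and young 6 to 9 at 9.94 or less. Of 12 auxiliary proteins that guide these receptors to the membrane, Cnih2 was bright (12.44 ± 0.33), Cacng2 (9.38 ± 0.20) and Cacng3 (7.35 ± 0.23) were middle, and Cacng8 was dim (2.95 ± 0.64), at 4.04 or more in 2 animals and at 2.80 or less in 7.

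For NMDA receptors, which need coincident activity to open, the obligatory subunit Grin1 was bright and steady, from 10.23 to 10.47 with a median of 10.35. Grin2c (8.97 ± 0.14) and Grin2a (8.76 ± 0.21) lay in the middle, Grin2b (4.86 ± 0.29) and Grin2d (3.07 ± 0.13) were dim, and Grin3a and Grin3b lay at the floor. Kainate receptors, which modulate mossy fibre synapses, showed Grik4 (9.15 ± 0.13), Grik5 (9.00 ± 0.13) and Grik2 (7.87 ± 0.11) with the auxiliary protein Neto1 (8.18 ± 0.13) in the middle class and Grik1, Grik3 and Grid1 at the floor. Among metabotropic glutamate receptors, which act through G proteins, Grm3 (9.86 ± 0.10), Grm8 (7.74 ± 0.43) and Grm5 (6.35 ± 0.40) lay in the middle, Grm7 (4.51 ± 0.20), Grm2 (2.90 ± 0.35) and Grm4 (2.84 ± 0.07) were dim, and Grm6, the receptor of retinal bipolar cells, lay at the floor. Over the 4 measured members of this group the mean deviation from the average animal was -0.35 in young 8 and lay between -0.06 and 0.18 in the other 8 animals.

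Inhibitory receptors were carried by few bright probe sets. Of 16 GABA-A subunits Gabra5 and Gabrb1 (10.25 ± 0.11) were bright, Gabrb2 (9.89 ± 0.09), Gabra2 (8.87 ± 0.29) and Gabrd (6.53 ± 0.11), a subunit of receptors outside synapses, lay in the middle, Gabrg1 and Gabra4 were dim, and 9 lay at the floor, against 32.4% of all genes. Gabra5 varied little, from 11.73 to 11.86 with a median of 11.78. Gabrg1 was uneven, at 4.28 in young 7 and at 5.25 to 5.88 in the other 8. The rho subunits of retina (Gabrr1, Gabrr2 and Gabrr3) and the cerebellar Gabra6 were among those at the floor. Both GABA-B subunits, Gabbr1 (11.49 ± 0.12) and Gabbr2 (10.71 ± 0.13), were bright, as was the glycine receptor beta subunit Glrb (10.73 ± 0.06), while of its alpha partners Glra2 lay in the middle (6.37 ± 0.45) and Glra1 and Glra3 at the floor.

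Receptors for the diffuse modulatory systems were mostly at the floor. This held for 17 of 21 acetylcholine receptor genes (81.0%), 9 of 14 serotonin receptor genes (64.3%) and all 5 dopamine receptor genes, against 32.4% of all genes. The exceptions for acetylcholine were the muscarinic receptors Chrm3 (6.97 ± 0.27), Chrm4 (5.10 ± 0.22) and Chrm1 (3.22 ± 0.32) and the nicotinic subunit Chrnb2 (3.49 ± 0.04). Htr2c was the middle-class serotonin receptor, from 7.61 in young 4 to 9.33 in young 5 with a median of 8.78, and Htr4 (5.44 ± 0.44), Htr7 (5.42 ± 0.09), Htr1a (4.32 ± 0.61) and Htr5b (4.16 ± 0.21) were dim. Muscarinic Chrm1 and nicotinic Chrna7 (2.29, floor) are well-known hippocampal receptors. Whether their low values belong to the probe sets or to the RNA was not tested. Of 12 adrenergic and histamine receptors 2 were dim and 7 lay at the floor (58.3%). In that list Adra1d was bright (10.20 ± 0.13) and the autoreceptor Hrh3 (7.30 ± 0.35) and Adra2a (6.08 ± 0.29) were middle. The cannabinoid receptor Cnr1 (11.40 ± 0.09), found on cholecystokinin interneurons, was bright, and the adenosine receptor Adora1 (8.08 ± 0.10) middle. Of 42 peptide receptors 27 lay at the floor, and Ntsr2 (10.22 ± 0.22), the PACAP receptor Adcyap1r1 (9.69 ± 0.12) and the somatostatin receptors Sstr3 (7.38 ± 0.15) and Sstr1 (6.59 ± 0.26) were the ones above dim.

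Of 14 steroid and thyroid receptors 1 was bright, 5 were middle, 3 dim and 5 at the floor (35.7%), and of 21 growth factor receptors 2 were bright, 6 middle, 5 dim and 8 at the floor (38.1%), against 32.4% of all genes there. The thyroid receptors Thra (10.10 ± 0.12) and Thrb (9.00 ± 0.21), the mineralocorticoid receptor Nr3c2 (9.86 ± 0.09) and the glucocorticoid receptor Nr3c1 (8.43 ± 0.09) were bright or middle, and the oestrogen receptors Esr1 and Esr2 lay at the floor. Fgfr1 (10.87 ± 0.13) and Ntrk2 (10.73 ± 0.12), the receptor for BDNF, were bright. The insulin receptor Insr was dim (3.10 ± 0.06) and Lepr, Ngfr and Erbb2 lay at the floor. Genes that respond to glucocorticoids were bright for Klf9 (11.01 ± 0.15) and Sgk1 (10.56 ± 0.31) and middle for Tsc22d3 (9.85 ± 0.14) and Fkbp5 (8.27 ± 0.08).

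The peptides themselves followed 2 patterns. The granins and processing partners of dense-core vesicles were bright: Scg5 (12.57 ± 0.07), Pcsk1n (12.34 ± 0.11), Chgb (12.32 ± 0.10), Scg2 (11.78 ± 0.17) and Scg3 (11.77 ± 0.08). Of 27 neuropeptide precursors Cck alone was bright, from 11.06 to 11.59 with a median of 11.43. Npy (8.09 to 8.94, median 8.33), Sst, Penk (7.15 ± 0.23), Grp (6.92 ± 0.45), Pdyn (6.30 ± 0.38) and Nmb (6.16 ± 0.22) lay in the middle together with Hcrt and Npvf, and the latter had at least 5 of 9 animals at 1 value. A further 12 lay at the floor, including Crh, Trh, Adcyap1 and Gal. Among growth factors Bdnf lay in the middle (7.72 ± 0.19), Ntf3 was dim (3.49 ± 0.19), and Fgf1, Fgf2, Igf1 and Gdnf lay at the floor.

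Ion channel subunits lay in all classes. Of 16 sodium channel genes the beta subunits Scn3b (12.26 ± 0.09) and Scn2b (11.36 ± 0.09) were bright, and the pore-forming Scn1a (9.51 ± 0.15) and Scn2a (9.29 ± 0.16) and the leak channel Nalcn (9.47 ± 0.07) were middle. Scn3a was dim (5.33 ± 0.27), and 9 lay at the floor, among them the muscle and sensory-neuron channels Scn4a, Scn10a and Scn11a but also Scn8a (2.58), a major channel of axon initial segments. Scn4b was lowest in young 8 (6.51) and lay between 7.29 and 7.82 in the other 8 animals. Calcium channels had the auxiliary Cacna2d3 bright (10.60 ± 0.09) and 8 of 18 in the middle, among them the presynaptic pores Cacna1b (8.64 ± 0.09) and Cacna1a (6.82 ± 0.25) and the L-type pores Cacna1c (7.92 ± 0.07) and Cacna1d (6.26 ± 0.42). The T-type Cacna1g was dim (2.85 ± 0.22), and Cacna1h, Cacna1i and Cacna1e lay at the floor.

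Potassium channels, the largest channel group, were middle for most voltage-gated members that were detected. Kcnq5, which carries the muscarine-sensitive M-current, was bright and steady (11.22 to 11.40, median 11.33). Kcna2 (9.92 ± 0.13), Kcnd2 (9.71 ± 0.17), Kcnc2 (9.65 ± 0.15) and Kcna1 (SD 0.11) were among 13 of 30 in the middle, and 12 lay at the floor. Their auxiliary subunits Dpp6 (11.17 ± 0.06), Kcnab2 (10.99 ± 0.11) and Kcnip2 (10.79 ± 0.12) were bright. Among 31 inward rectifier, K2P and calcium-activated channels, Kcnj6 (10.23 ± 0.13) was bright and Kcnma1 (9.08 ± 0.15) middle, with 10 dim and 19 at the floor. Hcn2 was dim (5.79 ± 0.15). The chloride exporter Slc12a5 (11.69 ± 0.10), which keeps GABA inhibitory in mature neurons, and the importer Slc12a2 (10.04 ± 0.17) were both bright. Of 17 chloride channel and cotransporter genes 4 were bright, 3 middle, 2 dim and 8 at the floor (47.1%), against 32.4% of all genes there. The TRP channel Trpm7 lay in the middle (8.30 ± 0.14).

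At the synapse, genes of glutamate loading and release lay in all classes. Slc17a7 (12.88 ± 0.12), which loads glutamate into vesicles, was bright, and the zinc loader Slc30a3 (8.73 ± 0.20), typical of mossy fibres, lay in the middle. Of 43 vesicle release genes 15 were bright, including Snap25, Rab3a (13.06 ± 0.06), Sv2b (12.64 ± 0.25), Nsf (12.24 ± 0.08), Bsn (12.08 ± 0.10), Cplx1 (12.07 ± 0.06) and Syp (11.83 ± 0.09), 12 were middle, 8 dim and 8 at the floor, among them Syt2 and Sv2c. Of 30 postsynaptic density genes 11 were bright: besides Ppp3ca they included Nrgn (12.59 ± 0.12), Prkcb (12.49 ± 0.10), Camk2b (12.10 ± 0.10), Camk2a (11.23 ± 0.22) and the scaffolds Shank1 (11.88 ± 0.15), Shank3 (11.10 ± 0.09) and Shank2 (10.30 ± 0.06). Of 24 genes of calcium buffers and pumps 11 were bright, 4 middle, 3 dim and 6 at the floor (25.0%). Bright genes of calcium handling included the neuronal sensors Hpca (12.59 ± 0.09), Vsnl1 (12.08 ± 0.08) and Ncald (11.84 ± 0.10). The pump Atp2a2 (12.18 ± 0.06), the ryanodine receptor Ryr2 (11.63 ± 0.10) and the IP3 receptor Itpr1 (11.20 ± 0.11) were bright as well.

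Some families lay wholly or mostly at the floor, against 32.4% of all genes there. All 22 Hox genes, which pattern the hindbrain and trunk, and all 18 olfactory receptor genes lay there, as did 22 of 25 keratins and 40 of 57 cytochromes P450, with the neuronal cholesterol hydroxylase Cyp46a1 in the middle (9.24 ± 0.10). Cytokines and their receptors were at the floor in 27 of 39 cases, including Il1b, Il6, Tnf and Ifng, while the neuronal chemokine Cx3cl1 was bright (11.23 ± 0.10). Of 23 MHC and complement genes B2m was bright (11.47 ± 0.12), Cd74, the class II invariant chain, was dim (3.94 ± 0.56), and 13 lay at the floor, among them the class II chains RT1-Da, RT1-Ba and RT1-Bb. Collagens were at the floor in 23 of 41 cases and Col25a1, a neuronal membrane collagen, was bright (10.41 ± 0.08). Larger families were mixed: 123 of 269 solute carriers (45.7%) and 53 of 199 zinc finger genes (26.6%) lay at the floor. There was 1 bright zinc finger gene, Zfp180 (10.27 ± 0.21), while 40 of 56 Rab GTPases, which direct vesicle traffic, were bright (13) or middle (27).

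The animals were alike for most genes. Over the 8515 genes with at least 4 in all 9 animals, the median SD was 0.11 log2 units, which corresponds to a factor of 1.08. By level the median SD was 0.14 at 4 to 6 (1381 genes), 0.14 at 6 to 8 (2808 genes), 0.10 at 8 to 10 (2974 genes), 0.08 at 10 to 12 (1123 genes) and 0.08 above (229 genes). An SD of at least 0.5, a factor of 1.41, was reached by 58 genes (0.681%), 36 of them at a mean of 6 to 8 and none at 12 or more. Just inside that limit lay Ift140 and C1ql3 (both 0.502), and just outside Htr2c (0.498, or 0.33 without young 4) and Zbtb2 (0.497). The steadiest genes with a mean from 8 to 12 were Txndc5 (8.39 ± 0.01), Anapc13 (8.48 ± 0.01), Ndufs4 (8.12 ± 0.02), Cryzl1-ps1 (8.54 ± 0.02), Mmp15 (8.33 ± 0.02), Mgat4b (8.94 ± 0.02), Cnrip1 (10.46 ± 0.02), Copb2 (8.97 ± 0.02), Sez6l2 (10.64 ± 0.03) and Sdhaf1 (9.01 ± 0.03). A very small SD is not always a tight measurement: Ndufs4, Cryzl1-ps1, Mmp15 and Mgat4b had at least 5 of the 9 animals at 1 value. Of 9610 genes above the floor, 1361 (14.2%) had at least 5 of 9 animals within 0.0001 of 1 value in this way, which was the case for 42.6% of dim genes, 5.31% of middle genes and 1 bright gene.

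**Figure D3:**
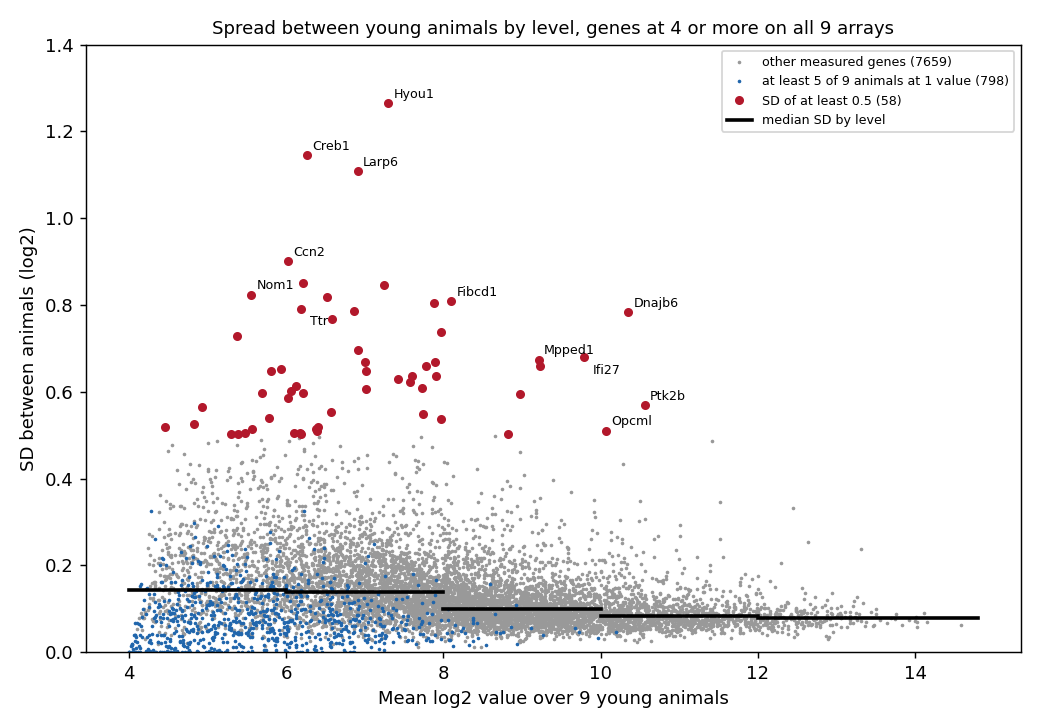
SD over the 9 young animals (vertical axis, log2) against the young mean (horizontal axis, log2) for the 8515 genes at 4 or more on all 9 arrays, with black lines at the median SD of each level. The 58 genes at an SD of at least 0.5 are red, genes with at least 5 of 9 animals at 1 value are blue, and the median falls from 0.14 below 8 to 0.08 from 10 upwards.

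The widest spread belonged to genes of several kinds. Hyou1, a chaperone of the endoplasmic reticulum, ran from 5.50 to 9.27 with a median of 6.95, and young 8 and 9 were the 2 animals above 9. Creb1, a transcription factor of activity-dependent genes, ran from 4.51 to 7.51 with a median of 6.62. Young 1 and 7 shared 1 value to 4 decimals (4.5092), and none of its 3 other probe sets was at 4 or more on all 9 arrays. Larp6, an RNA-binding protein, ran from 4.90 to 8.06 with a median of 7.20, and young 5 and 8 were the 2 animals below 6. The matricellular Ccn2 was at 7.22 in young 1 and 5, 6.94 in young 8 and 6.34 in young 7, and at 5.49 or less in the other 5 animals. Cyp26b1, which degrades retinoic acid, ran from 4.89 to 7.33 with a median of 6.14, and the apolipoprotein Apoc1 from 6.24 to 8.54 with a median of 7.54. In the retinoid-synthesising Aldh1a1 a single animal decided the spread, with young 5 at 5.99 and the others between 7.51 and 8.66. Ldb2 (6.87 ± 0.79, SD 0.56 without young 4) and Eml2 (6.92 ± 0.70) were lowest in young 4, Peli2 (SD 0.67) in young 7, and Frg1 (6.58 ± 0.77) in young 5. Nom1 (5.56 ± 0.82), Tnr (5.38 ± 0.73) and Ifi27 (9.79 ± 0.68) were highest in young 5, young 1 and young 7 in turn. The remaining genes among the 20 most variable were Hcrt, Fibcd1, Ttr, Dnajb6, Arpc4 and Mpped1.

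Many of these spreads rested on 1 animal, and many returned in the aged animals. For 35 of the 58 genes the SD fell below 0.5 without the animal farthest from the median. The farthest animal was young 8 for 10 of the 58, young 1 and young 6 for 9 each, young 4 for 8 and young 2 for 7. In the aged unimpaired animals, 28 of the 58 (48.3%) again had an SD of at least 0.5, against 80 of all 8515 genes (0.940%), and in the aged impaired animals 35 of 58 (60.3%) against 110 (1.29%). The 20 genes variable in both aged groups stood beside 15 variable in neither. Creb1 was one of the latter, with an SD of 1.15 in young, 0.16 in aged unimpaired and 0.34 in aged impaired animals. A second measured probe set of the same gene existed for 10 of the 58. It followed the first across the 9 animals with r above 0.5 for Fbxw7, Opcml, Arl16 and Lig4 and with r below 0 for Lysmd4 and Zfp292. These correlations describe pairs on the same 9 arrays. Over all 1927 pairs of probe sets in which both varied the median r was 0.22, and over the 56 pairs with an SD of at least 0.3 it was 0.34.

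In 15 genes the 9 animals fell on both sides of an empty gap of at least 1 log2 unit, with at least 2 animals on each side. Prss35, a serine protease-like protein, was at 2.42 or less in 5 animals and at 5.87 to 8.55 in young 1, 5, 7 and 8. Myom2, a sarcomere protein, was at 2.91 to 3.84 in young 2, 3, 4 and 8 and at 6.83 to 8.17 in the other 5. RT1-N2, a class Ib MHC gene, was at 4.29 in young 6 and 3.49 in young 7 and at 6.68 to 7.13 in the other 7. Dnajb6, a cochaperone, was at 11.34 to 11.42 in young 3, 5 and 7 and at 10.15 or less in the other 6. The groups of animals differed from gene to gene. The other gap genes were Larp6 (2.00), Cacng8 (1.24), Hyou1 (1.16), Nit2 (1.15), Fos (1.13), Arpc4 (1.12), Nqo2 (1.11), Creb1 (1.07), Gjb2, Etv4 and Pank1, with the width of the gap in log2 units in brackets.

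Aged animals, which did not define these gaps, lay on 1 side of them, on both or inside. No aged animal lay inside the gap of Creb1, and all 14 lay above it. Cacng8 had none of 14 above the middle of its gap and Arpc4 had 1. Prss35 was again split, with 3 of 6 aged unimpaired and 2 of 8 aged impaired animals above the middle of the gap and 2 of the 14 inside it. RT1-N2 had 4 of 6 and 8 of 8 above the middle with 4 inside, and Larp6 4 of 6 and 7 of 8 with 1 inside. For Dnajb6 the aged animals lay above the middle in 3 of 6 and 3 of 8 cases, with 3 inside. What sets the animals of 1 group apart at these genes was not tested.

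**Figure D4:**
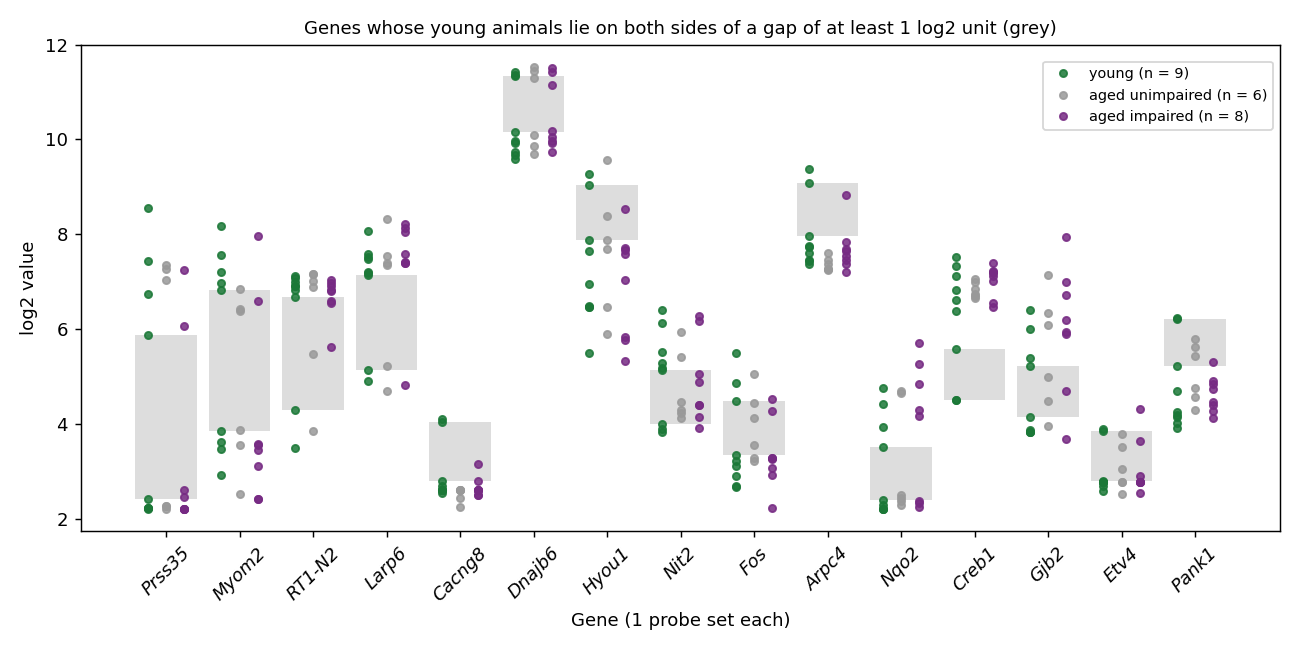
Log2 value (vertical axis) of the 15 genes (horizontal axis) whose 9 young values (green) leave an empty gap of at least 1 log2 unit, drawn in grey, with the aged unimpaired (grey points, n = 6) and aged impaired animals (purple, n = 8) beside them. For Creb1 every aged animal lies above the gap, and for Prss35 aged animals lie on both sides.

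Young 1 and young 4 stood apart in the genes of neighbouring tissue. The summed log2 level of 15 genes of meninges and fibroblasts was 73.90 in young 1 and 58.69 to 61.14 in the other 8 animals, and young 1 was highest for 10 of the 11 genes that varied at all. Prostaglandin D synthase Ptgds was at 12.62 in young 1 against 10.97 to 11.53, Igf2 at 9.03 against 6.67 to 7.81, Igfbp2 at 8.47 against 6.90 to 7.53, the proteoglycan Dcn at 5.88 against 3.21 to 4.26, and the fibrillar collagens Col1a1 and Col1a2 at 4.20 and 4.85 against at most 2.24 and 2.57. Coch, a gene of the CA3 list, was at 6.04 there and at 2.19 in all others. Ogn, Col3a1 and 5 other genes of the list lay at the floor in every animal. The summed level of the 7 CA1 genes was also highest in young 1 (54.04), with 5 of 7 genes highest there.

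Young 4 had the lowest value of all 7 CA1 genes, with a sum of 39.03 against 45.89 to 54.04. Fibcd1 was at 6.27 in young 4 and 7.60 to 9.05 in the others, Mpped1 at 7.63 against 8.84 to 10.09, and Wfs1 at 5.70 against 6.63 to 8.11. For each of these genes young 1 was the highest animal and young 4 the lowest, with no other animal close to young 4. Without young 4 the SD was 0.46 for Fibcd1, 0.34 for Mpped1 and 0.45 for Wfs1, in place of 0.81, 0.67 and 0.65. Without young 1 or young 4 the number of genes at an SD of at least 0.5 was 63 and 60 in place of 58. The CA3 list moved little between animals, with a mean deviation from -0.09 in young 1 to 0.15 in young 7. The part of neighbouring tissue in other results was not tested.

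The other lists covered a smaller range than those of CA1 and meninges. The choroid plexus list lay between -0.37 in young 1 and 0.45 in young 2, over 4 genes. The dentate list lay between -0.33 in young 7 and 0.27 in young 2, where Prox1 was at 6.93 and 7.64, and Prox1 was highest in young 8 (8.19). Bcl11b ran from 8.21 in young 6 to 10.01 in young 9, and the list of subiculum and cortex was lowest in young 6 (-0.35). Interneuron genes ranged from -0.24 in young 4 to 0.23 in young 5, astrocyte genes from -0.20 in young 4 to 0.10 in young 6, and oligodendrocyte genes from -0.16 in young 1 to 0.14 in young 7. Among 76 genes of oxidative phosphorylation the mean deviations lay between -0.11 in young 4 and 0.08 in young 7, and 48 of the 76 had their lowest value in young 4. A list score over a few genes leans on each of them, and 5 genes carry the CA1 score and 4 the score of meninges.

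**Figure D5:**
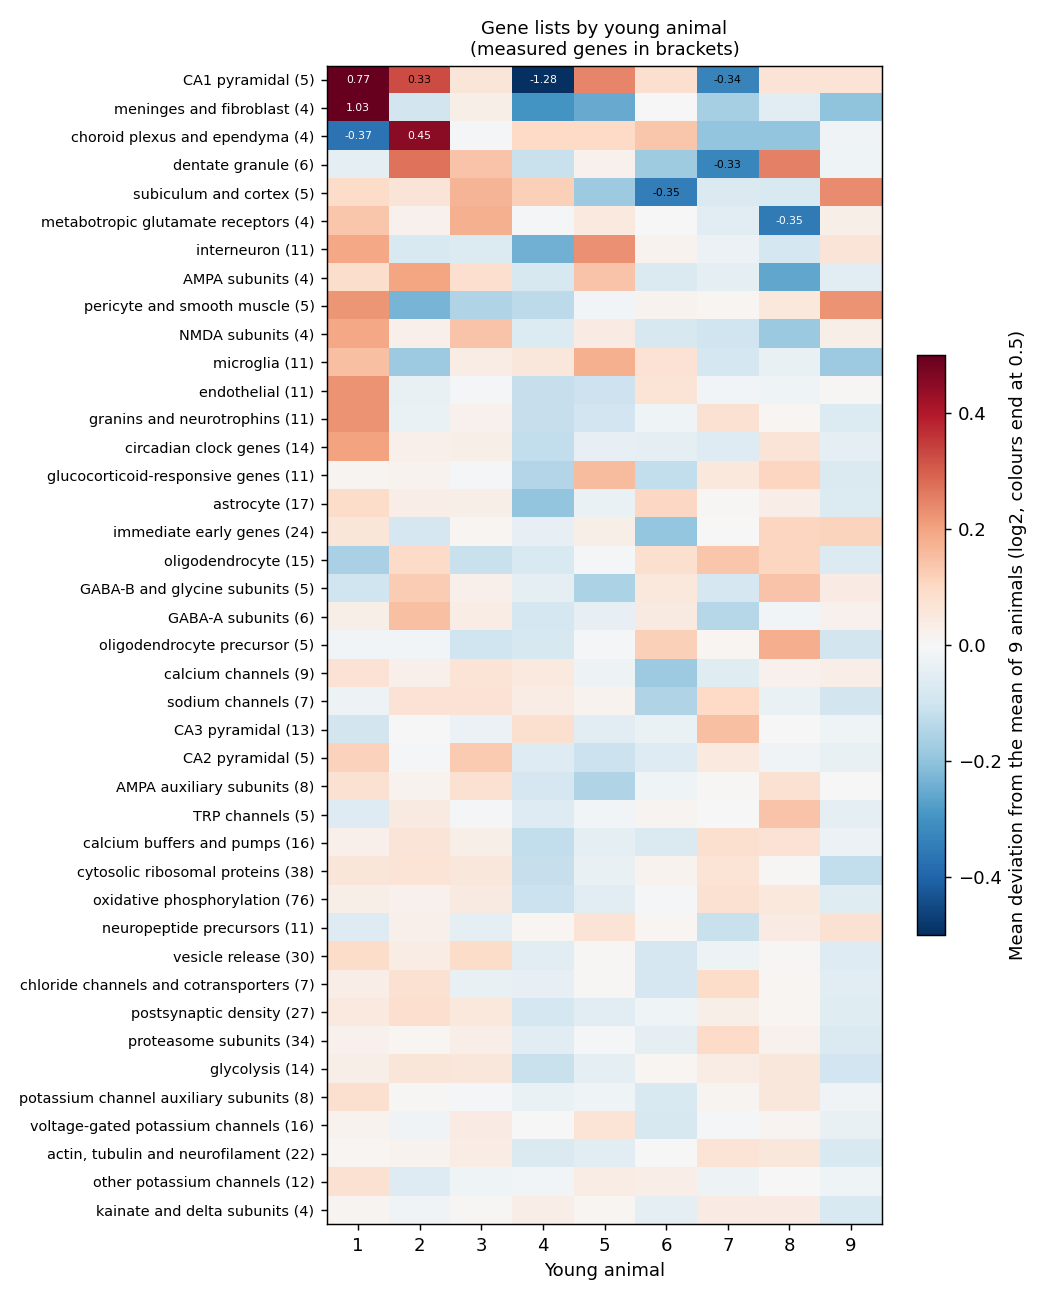
Mean deviation from the average young animal (colour, log2, ending at 0.5) of 41 gene lists (rows, measured genes in brackets) in the 9 young animals (columns), with values printed where they exceed 0.3 in size. The CA1 list reaches 0.77 in young 1 and -1.28 in young 4, and the list of meninges reaches 1.03 in young 1.

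Immediate early genes, which switch on within minutes of neuronal activity or handling, were detected at all levels. Of 36, Jund (11.37 ± 0.09), Jun (10.37 ± 0.18) and Plk2 (10.09 ± 0.14) were bright along with Rheb (11.19 ± 0.08), Egr1 ran from 9.24 to 9.91 with a median of 9.61, and Arc lay at 8.94 in young 9 and at 7.88 to 8.32 in the other 8 animals. Fos was dim, at 5.49 in young 9, 4.86 in young 8 and 4.47 in young 3, and at 3.34 or less in the other 6. Klf2 was highest in young 9 (5.19) and young 8 (5.03), and Junb in young 9 (7.02). Of the 30 genes above the floor, 10 had their highest value in young 9 and 9 their lowest in young 6. Clock genes lay in the middle in 12 of 18 cases, with Tef (9.68 ± 0.14), Per2 (8.04 ± 0.15), Dbp (7.67 ± 0.43) and Bmal1 (6.91 ± 0.09) among them and the repressor Nr1d1 at the floor.

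To ask whether cell type markers varied together between young animals, 28 pairs of 8 genes (Grik4, Wfs1, Prox1, Gad1, Gfap, Mbp, Ttr and Fos) were correlated over the 9 animals, with exact two-sided permutation tests over all 362880 orders and Benjamini-Hochberg adjustment over the pairs. No pair passed an adjusted p of 0.05 by Pearson's r or Spearman's rho, and 2 pairs had an unadjusted permutation p of at most 0.05 by r and 1 by rho. The CA3 gene Grik4 and the CA1 gene Wfs1 ran in opposite directions (r = -0.77, exact p = 0.0141, adjusted p = 0.394; rho = -0.80, exact p = 0.0138, adjusted p = 0.387), and r was -0.62 without the 2 animals farthest from the median of Grik4. Gfap and Mbp gave r = 0.72 (exact p = 0.0315, adjusted p = 0.441), which fell to 0.045 with the second brightest probe set of a gene in place of the brightest. With 9 animals neither relation passes the correction, and the lowest adjusted p over the alternatives was 0.172.

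Young arrays were set against the aged ones in spread. The median absolute deviation of an array from the other arrays of its group, scaled for group size and taken over 13951 probe sets, was 0.0757 ± 0.0073 in young (SD, n = 9) and 0.0838 ± 0.0167 in aged animals (SD, n = 14). Young arrays lay between 0.0666 and 0.0881 and aged ones between 0.0613 and 0.124, so the groups overlapped. The mean was 0.0737 in the aged unimpaired animals, below the young, and 0.0914 in the aged impaired, above them, and the aged groups were not tested against each other. The mean of the young minus that of all aged animals was -0.00816. No difference in means was detected (exact two-sided permutation test over 817190 relabelings, p = 0.19).

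In level, young and aged animals differed for a minority of genes. With limma, 1010 of 14647 probe sets passed an adjusted p of 0.05 (6.90%), 489 higher and 521 lower in the aged (48.4% higher). After each array was centred on its median the calls were 1510, with 410 higher and 1100 lower (27.15% higher), so the balance of directions depends on the scaling. Without young 3 the calls fell to 615, and without young 1 and young 4, the animals that stood apart, they were 917 and 771. Taken by gene, 659 of 8726 were called (7.55%), 305 higher (3.50%) and 354 lower in the aged (4.06%). Bright genes of young CA3 were called in 125 of 1352 cases, 38 higher and 87 lower, middle genes in 445 of 5786, 202 higher and 243 lower, and dim genes in 88 of 1585, 64 higher and 24 lower. As the classes were set on the young values, these directions are a description. Of the 58 genes most variable in young animals, 5 were called (8.62%), 4 higher and 1 lower.

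The lists of microglial, astrocyte and oligodendrocyte genes were among those called more often than the 7.55% of all genes. Microglial genes were called higher in the aged in 10 of 12 cases (83.3%), with a median log2 difference of 0.52 against -0.01 over all genes. They included Aif1 (6.75 in young, 7.71 in aged, 14 of 14 aged animals above every young one, adjusted p = 1e-05), P2ry12 (8.51 and 9.21, adjusted p = 6.06e-05) and C1qa (8.53 and 9.32, adjusted p = 7.31e-05). Of 23 genes of MHC and complement 10 were tested, and 9 of these were called higher (90.0%). The list shares its 3 C1q genes with the microglial one. Testing required 4 or more on at least 6 of the 23 arrays. RT1-Da, below 3 in every young animal, met this only through aged arrays, and C3 mostly through them. For such genes the filter favoured a call of higher, so this share cannot be read against that of all genes. C3, at 2.46 to 3.87 in 8 young animals and 5.88 in young 5, was higher in 14 of 14 aged animals than in any young one. Astrocyte genes were called higher in 7 of 17 cases (41.2%). Among them Gfap was at 12.15 ± 0.16 in young and 12.73 as the mean of both aged groups (limma, adjusted p = 0.000305). Oligodendrocyte genes were called in 4 of 15 cases (26.7%) and in both directions, Qdpr and Plekhb1 higher and Mal and Ugt8 lower.

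Several lists of neuronal and cytoskeletal genes were also called more often than all genes, and mostly lower in the aged. Other neuronal lists were not. Vesicle release genes were called in 2 of 30 cases (6.67%) and postsynaptic density genes in 1 of 27 (3.70%). Voltage-gated potassium channels were called in 0 of 16 cases and neuropeptide precursors in 0 of 11. Of 13 tested CA3 genes 5 were called (38.5%): Chgb, Nrip3, Dkk3 and Bhlhe22 lower, by 0.15 to 0.23 log2 units, and Prkcd higher. Chgb and Dkk3 lay just inside the limit of 0.05 (limma, adjusted p = 0.0498 and 0.0488). Prkcd also stands in the list of other brain regions. These 5 calls were not followed through the other processing settings. Of 9 calcium channel genes 3 were called (33.3%), all lower: the pore Cacna1b and the auxiliary subunits Cacnb3 and Cacna2d3. Of 22 genes of actin, tubulin and neurofilament 6 were called (27.3%), all lower, among them Stmn2, a tubulin-binding protein of axons (12.18 in young, 11.94 in aged, adjusted p = 0.000199), and Tubb2b (11.39 and 11.09, adjusted p = 0.000199). The potassium channel auxiliary subunits Dpp6 and Kcnip2 were called lower, 2 of 8 tested (25.0%), and of 13 kinesins 4 were called (30.8%), 2 in each direction. These lists are short, so a few genes set each share. The muscarinic receptor Chrm3 was lower by 0.53 ± 0.10 (SE; 6.97 in young, 6.44 in aged, adjusted p = 0.0044), the axon guidance ligand Sema3c was at 7.85 in young and 7.04 in aged animals (adjusted p = 0.000697), and the endothelial Slco1c1 at 9.39 and 9.02 (adjusted p = 0.000199). The dopamine receptor, Hox and olfactory receptor genes at the floor in young animals could not be compared, because 3 of the 4607 genes at the floor in young animals reached the level for testing, a value of at least 4 on at least 6 of the 23 arrays.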

How the data were processed

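RNA of CA3 from 23 animals was measured on Affymetrix rat genome expression arrays. The deposited log2 values were made by the authors with GCRMA, as the submitters' processing notes state. This method takes background from the probe sequence, brings the arrays to 1 distribution and joins probes into probe sets, so a shift of a whole array is lost and weak probe sets gather at a floor. Which version and settings were used is not stated in the sources used here. Arrays give no read depth, and their number limits the precision.

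Groups were taken from the sample titles. Of 31042 probe sets that were not controls, 20826 named 1 gene in the platform's annotation, 436 several and 9780 none, and 20758 were matched to RefSeq's current gene table (GRCr8). Each of 14217 genes was represented by its brightest probe set. Listed genes without a probe set naming them alone are not analysed here. The 67 gene lists, of 1997 entries with 1872 on the array, and the animals described were chosen with earlier results of these data known. Named genes were list members, the 20 brightest, the 20 most variable and 10 steadiest genes, the 15 widest gaps and the 10 largest differences from aged animals in each direction among called genes.

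Young and aged animals were compared with limma (version 3.58.1, R 4.3.3) on all 23 arrays with 1 mean per group, as the mean of both aged groups minus young, two-sided, over 14647 probe sets at 4 or more on at least 6 arrays, with Benjamini-Hochberg adjustment and a limit of 0.05. Single values were compared by exact permutation of animals (numpy 2.4.6). The procedures were tested on simulated data. The alternatives tried were other floors, limits and filters, the median probe set, quantile normalization, median centring, array weights, a replicate block and leaving out each young animal. The probe sets of the control rows were left out, and no genome coordinates were used beyond those of the RefSeq upstream sequences.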

Additional observations from a re-analysis of the deposited data

Results flagged for a closer look

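Of 54 genes and 41 list scores screened over the 9 young animals, 14 genes and 2 scores had 1 animal separated from the nearest other by a share of the range that chance reaches in about 1 of 20 groups. The genes were chosen with their values known, so the count cannot be read against that rate. Young 1 accounted for 8 of the 16 values set apart in this way, young 5 for 3, young 8 for 2 and young 4, 7 and 9 for 1 each.

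In young 1, genes of meninges and fibroblasts lay above the other 8 animals. Col1a1 was at 4.20, Col1a2 at 4.85, Dcn at 5.88, Igf2 at 9.03, Igfbp2 at 8.47 and Ptgds at 12.62. The mean deviation of the 4 measured genes of that list was 1.03, against -0.30 to 0.03 in the others. Coch, a gene of the CA3 list, was at 6.04 in young 1 (others 2.19).

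In young 4, Gad1 was at 10.60 (others 11.01 to 11.26). The CA1 list score of young 4 (-1.28, others -0.34 to 0.77) was not among the values set apart by this rule. In young 5, Aldh1a1 was low at 5.99, Sst high at 8.40 and complement C3 high at 5.88 (others 2.46 to 3.87). In young 7, Gabrg1 was low at 4.28. In young 8, Scn4b was low at 6.51 and the mean deviation of the metabotropic glutamate receptors was -0.35 (others -0.06 to 0.18). In young 9, Arc was high at 8.94 (others 7.88 to 8.32).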

How the results depend on the processing

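The count of genes at the floor, of 4607, stayed between 4002 and 6098 over 14 alternatives. The 1352 bright genes became 2645 with bright from 9, 627 with bright from 11 and 864 with the median probe set of a gene. The 58 variable genes became 146 at an SD of 0.4, 16 at 0.7, 21 with at least 6 on all 9 arrays and 100 without a level filter, and the median SD of 0.11 became 0.084 without the filter, where genes pinned at the floor enter. Leaving out each young animal in turn gave 1346 to 1363 bright, 4614 to 4635 floor and 60 to 65 variable genes, a median SD of 0.107 to 0.111, a difference in array deviation of -0.00898 to -0.00637 and 0 adjusted marker correlations each time. Leaving out genes pinned at 1 value, chosen after seeing the data, kept 58 variable genes, and counting pinned genes as floor gave 5968.

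The 1010 probe sets called between young and aged became 509 without a filter, where more probe sets are tested, and 615 to 1022 without 1 young animal, with 615 without young 3. Same-numbered animals of different groups had a median r of -0.01 over 20 pairs (-0.14 to 0.13), against 0.01 over 154 others. The titles state no pairing, and a median over so few pairs cannot decide whether the numbers mark one. With the replicate number as a replicate block the calls were 527. Of the called genes followed through the alternatives, Gabra5 lost its call in 12 of 16, Igf2 in 9 of 16, Col4a5 in 7 of 15 and Grin1 and Rnf6 in 3 of 16. Differences near the floor are compressed, which limits dim genes most.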
